A study of Homo sapiens with 10 samples.

Results

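The 9 miRNAs described here are the erythroid miRNAs hsa-miR-451a, hsa-miR-144-3p, hsa-miR-144-5p and hsa-miR-486-5p, the leukocyte miRNAs hsa-miR-223-3p, hsa-miR-142-3p and hsa-miR-142-5p, and the endothelial miRNAs hsa-miR-126-3p and hsa-miR-126-5p. They were chosen by name, as miRNAs known from blood and endothelial cells, from the 2576 mature miRNAs of the deposited table. Rows of the same name were summed. Of the 9 miRNAs, 8 had a read in any library, against 1196 of all 2576.

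Small RNA was sequenced from ES-2, an established cell line derived from a human ovarian cancer and grown in medium with serum. All groups received siRNAs: control siRNA (siC, 2 libraries), or a pool of siRNAs against IGF2BP1 (siIGF2BP1, 2 libraries), IGF2BP2 (siIGF2BP2, 3 libraries) or IGF2BP3 (siIGF2BP3, 3 libraries). The 3 targets encode paralogous RNA-binding proteins that bind and often stabilise mRNAs; small RNA libraries do not measure their mRNAs, so the knockdowns cannot be checked here. The columns of the control libraries carry numbers that do not match their sample labels, and they are called siC C2 and siC C3. The siC and siIGF2BP1 libraries carry the source name ES-2 in the labels. The siIGF2BP2 and siIGF2BP3 libraries carry another, ovarian cancer derived cell line. In siIGF2BP2 or siIGF2BP3 against siC the knockdown and the source name therefore cannot be told apart. No label states whether replicate libraries stem from separate cultures, so a p-value here weighs a difference only against the spread between libraries, which may be technical.

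miRNAs are short RNAs cut from hairpin precursors, and each hairpin can yield a 5p and a 3p arm. An arm loaded into an Argonaute protein pairs with target mRNAs mainly through its seed, bases 2 to 8 from the 5′ end. miR-144 and miR-451a are made from neighbouring hairpins under control of erythroid GATA1, and miR-451a is unusual in being matured by Argonaute 2 without Dicer. miR-142 and miR-223 are hallmarks of blood-forming cells, miR-223 above all of neutrophils and their precursors. Both arms of miR-126 come from an intron of EGFL7, an endothelial gene, and miR-126-3p is known for sustaining VEGF signalling in vessels.

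Mature sequences from RefSeq (GRCh38.p14) were matched to 7 of the 9 names, and miR-451a and miR-486-5p were left without one. The 6 sequences that the results turn on are printed so that the arms of each hairpin and their seeds (in capitals) can be compared.
miR-144-3p: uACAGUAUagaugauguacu
miR-144-5p: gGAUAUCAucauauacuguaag
miR-142-3p: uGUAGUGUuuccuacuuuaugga
miR-142-5p: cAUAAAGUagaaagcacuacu
miR-126-3p: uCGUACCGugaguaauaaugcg
miR-126-5p: cAUUAUUAcuuuugguacgcg
The miR-144 arms lie on the minus strand at chr17:28861548-28861567 (3p) and chr17:28861583-28861604 (5p). The miR-142 arms lie on the minus strand at chr17:58331245-58331267 (3p) and chr17:58331283-58331303 (5p). The miR-126 arms lie on the plus strand at chr9:136670653-136670674 (3p) and chr9:136670616-136670636 (5p). The deposited table itself holds no coordinates, and the submitters' processing notes name the build hg19.

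The 7 matched miRNAs carry 7 distinct seeds, so the 2 arms of a hairpin differ in seed from each other and from every other matched member. They are 20 to 23 bases long and poor in G and C, with at most 45.5% G and C in any of them against a median of 52.2% over the 2370 mature sequences of the RefSeq table. Among those sequences 1 other, miR-5590-3p, shares a seed with a matched member, that of miR-142-5p, and it had no read in any library. In the RefSeq annotation MIR451A overlaps MIR451B and lies next to MIR144, MIR126 lies within EGFL7, MIR142 overlaps its host transcript MIR142HG, MIR223 overlaps MIR223HG, and MIR486-1 overlaps MIR486-2 and ANK1.

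Values are the authors' normalised read counts, from which whole reads were recovered. Library totals ranged from 462724 to 1269743 miRNA reads, and 1 read was worth 0.803 to 1.996 units. A read covers a whole mature miRNA, so values were not scaled by length. With no read in a library, its own floor of 3 reads allows a value of 2.41 to 5.99. Intervals on reads and floors cover counting error only.

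The 9 miRNAs together were a small part of every library, and miR-142-5p alone gave most of their reads in 8 of the 10. Their share of miRNA reads was 0.0801% in siC C2, 0.132% in siC C3, 0.0519% and 0.0831% in siIGF2BP1 replicates 1 and 2, 0.0458%, 0.0656% and 0.0597% in the siIGF2BP2 replicates, and 0.0666%, 0.0562% and 0.163% in the siIGF2BP3 replicates. The highest shares were thus in siC C3 and siIGF2BP3 replicate 3, each above the other libraries of its own group. The make-up of these 2 libraries differed: 58.9% of the member reads of siC C3 were erythroid, and 99.4% of those of siIGF2BP3 replicate 3 were leukocyte. miR-142-5p made up 30.7% to 79.1% of member reads with siC or siIGF2BP1, against 87.8% to 92.6% with siIGF2BP2 or siIGF2BP3. By mean over the 10 libraries, miR-142-5p ranked 74 among all miRNAs, miR-451a 150, miR-142-3p 197 and miR-126-5p 207.

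**Figure D1:**
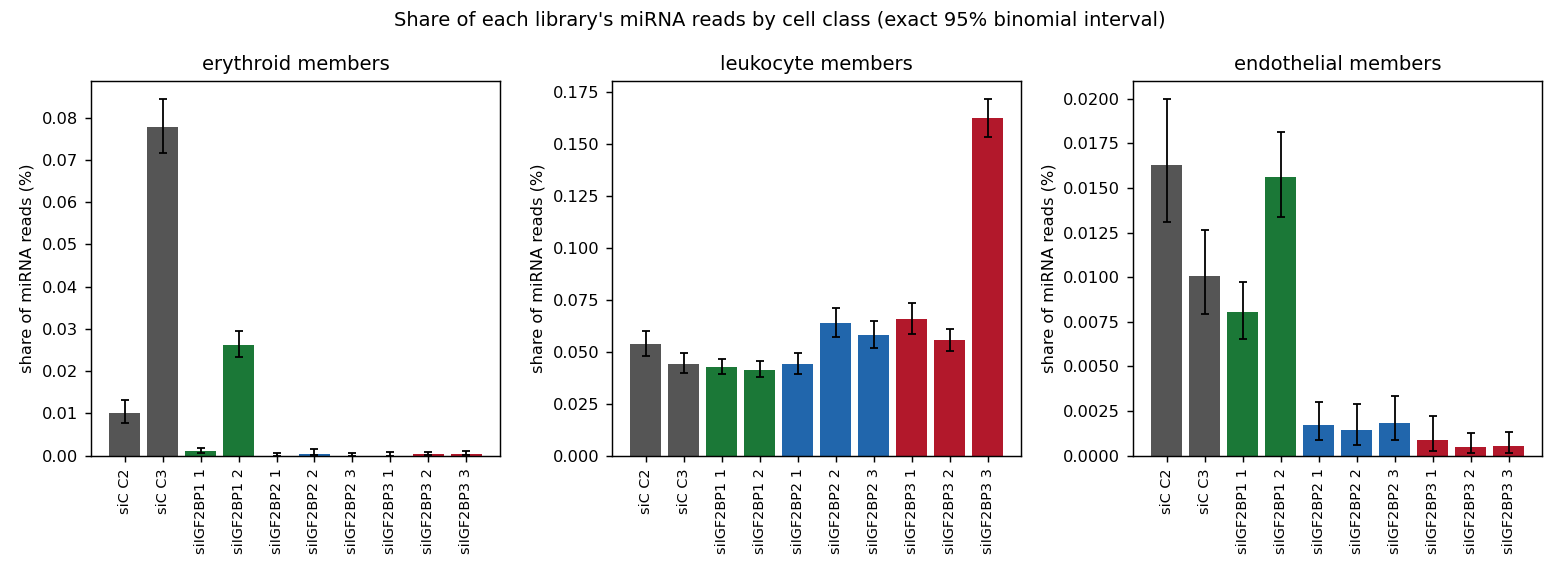
Share of each library's miRNA reads (y axis, %) from the erythroid, leukocyte and endothelial members, with libraries along the x axis in group colours; error bars are exact 95% binomial intervals, and each panel has its own scale. The erythroid bar is highest in siC C3, the leukocyte bar in siIGF2BP3 replicate 3, and both erythroid and endothelial bars are low in all 6 siIGF2BP2 and siIGF2BP3 libraries.

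The order of levels differed between groups. In siC, miR-142-5p (424 ± 39.1, SD, n = 2) and miR-451a (364 ± 419) did not differ beyond their spread, and miR-126-5p (98.7 ± 19.1) lay within the range of miR-451a. Below them were miR-144-3p (37.0 ± 36.1), miR-142-3p (35.6 ± 3.30), miR-144-5p (25.2 ± 17.0) and miR-126-3p (24.8 ± 16.2), which overlapped. In siIGF2BP1, miR-142-5p stood at 397 ± 31.0 (SD, n = 2), above miR-451a at 110 ± 146 and miR-126-5p at 86.4 ± 33.6, which overlapped. In siIGF2BP2 the order was miR-142-5p at 489 ± 73.5 (SD, n = 3), miR-142-3p at 38.9 ± 12.9, miR-126-5p at 13.1 ± 1.47 and miR-126-3p at 2.73 ± 0.777, with no overlap between neighbours. In siIGF2BP3, miR-142-5p at 793 ± 451 (SD, n = 3) and miR-142-3p at 82.9 ± 78.7 again led, ahead of miR-126-5p at 4.76 ± 1.22 and miR-126-3p at 1.06 ± 1.004. The place of miR-451a in siIGF2BP1 rests on replicate 2, since in replicate 1 it was below both arms of miR-142 and of miR-126. All erythroid members were at or near 0 in siIGF2BP2 and siIGF2BP3.

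The erythroid miRNA miR-451a had most of its reads in siC C3 and siIGF2BP1 replicate 2, fewer in the other siC and siIGF2BP1 libraries, and almost none elsewhere. Its value was 67.6 in siC C2, 660 in siC C3, 7.23 and 213 in siIGF2BP1 replicates 1 and 2, 0, 1.91 and 0 in the siIGF2BP2 replicates, and 0, 2.37 and 2.38 in the siIGF2BP3 replicates. These values rest on 537 siC reads and 251 siIGF2BP1 reads (9 of them in replicate 1), but on 1 siIGF2BP2 read and 4 siIGF2BP3 reads. The lowest of the siC and siIGF2BP1 values lay above the highest of the siIGF2BP2 and siIGF2BP3 values. This was not particular to miR-451a, since miR-143-3p and miR-375 separated in the same way. The number over all miRNAs tested was not counted. Within groups the spread was wide: siC C3 was 9.76-fold above siC C2, and siIGF2BP1 replicate 2 was 29.5-fold above replicate 1.

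Both arms of miR-144, whose hairpin neighbours that of miR-451a, followed the same libraries. miR-144-3p had 11.5 in siC C2, 62.5 in siC C3, 2.41 and 18.5 in siIGF2BP1 replicates 1 and 2, and no read in any of the 6 siIGF2BP2 and siIGF2BP3 libraries. miR-144-5p had 13.2 in siC C2, 37.3 in siC C3, 0.803 and 21.2 in siIGF2BP1 replicates 1 and 2, 0, 1.91 and 0 in siIGF2BP2, and 0, 0 and 1.19 in siIGF2BP3. For all 3 miRNAs siC C3 was the highest library, siIGF2BP1 replicate 2 was above replicate 1, and the siIGF2BP1 range overlapped the siC range. The ratio of miR-451a reads to miR-144-3p reads was 5.86 in siC C2, 10.6 in siC C3, 3.00 in siIGF2BP1 replicate 1 and 11.5 in replicate 2, the third of these from 9 and 3 reads.

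Not every erythroid miRNA was present in these libraries. miR-486-5p, which is abundant in red blood cells, had no read in any of the 10 libraries, and neither had miR-486-3p. The table lists miR-486-5p in 2 rows, as from 2 hairpins, and both were at 0. miR-451b, miR-4732-3p and miR-4732-5p, from hairpins next to those of miR-451a and miR-144, also had no read in any library.

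**Figure D2:**
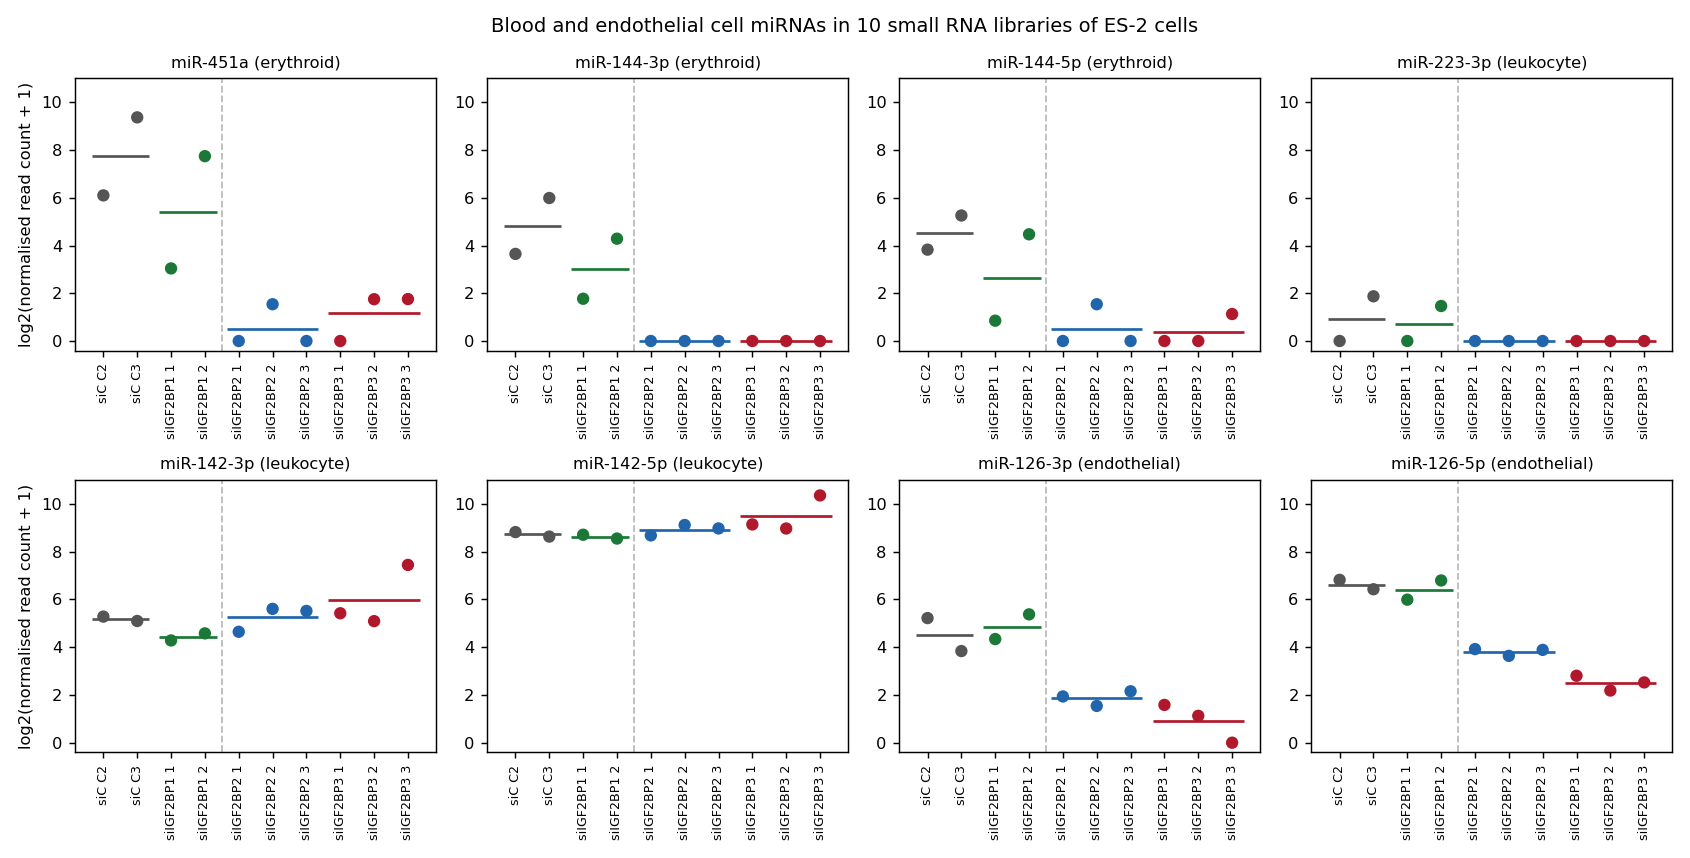
log2(normalised read count + 1) (y axis) of the 8 members with a read in each of the 10 libraries (x axis; points coloured by group, short lines at group means, the dashed line between the source names). miR-451a, both arms of miR-144 and both arms of miR-126 have lower group means to the right of the dashed line, and miR-142-5p is highest in siIGF2BP3 replicate 3.

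The leukocyte hairpin miR-142 was present in all libraries at a far more even level. miR-142-5p had 452 in siC C2, 397 in siC C3, 419 and 375 in siIGF2BP1, 410, 556 and 502 in siIGF2BP2, and 565, 502 and 1313 in siIGF2BP3. miR-142-3p had 37.9 in siC C2, 33.3 in siC C3, 18.5 and 22.9 in siIGF2BP1, 24.1, 47.7 and 44.9 in siIGF2BP2, and 41.9, 33.1 and 174 in siIGF2BP3. In siIGF2BP3 replicate 3 both arms stood above all 9 other libraries. Highest and lowest library of a group differed 1.14-fold in siC, 1.12-fold in siIGF2BP1 and 1.35-fold in siIGF2BP2 for miR-142-5p, but 2.62-fold in siIGF2BP3. For miR-142-3p the span in siIGF2BP3 was 5.24-fold.

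miR-223-3p, the myeloid miRNA, was close to absent. It had 2 reads in siC C3 (a value of 2.66), 2 reads in siIGF2BP1 replicate 2 (1.76) and none in the 8 other libraries. Both libraries with a read were those high in miR-451a in their group. No ratio of pooled reads is given, because every group was at or under its floor.

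The endothelial miRNA miR-126-5p had 112 in siC C2, 85.2 in siC C3, 62.7 and 110 in siIGF2BP1, 14.1, 11.5 and 13.8 in siIGF2BP2, and 5.99, 3.55 and 4.76 in siIGF2BP3. The siC and siIGF2BP1 values overlapped, all siIGF2BP2 values lay below them, and all siIGF2BP3 values lay below those of siIGF2BP2. The siIGF2BP3 values rest on 3, 3 and 4 reads, and those of replicates 1 and 2 equal the floor of 3 reads of their library. Over all 889 miRNAs tested, 238 did not overlap between siIGF2BP2 and siC, and 136 between siIGF2BP3 and siIGF2BP2, in either direction. miR-126-3p had 36.3 in siC C2, 13.3 in siC C3, 19.3 and 40.5 in siIGF2BP1, 2.83, 1.91 and 3.45 in siIGF2BP2, and 1.996, 1.18 and 0 in siIGF2BP3. The miR-126-3p values of siIGF2BP2 and siIGF2BP3 overlapped and rest on 5 and 2 reads. In contrast to the erythroid miRNAs, siC C3 was the lower control for both arms. For miR-126-5p the span within a group was between 1.24-fold and 1.76-fold.

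The share of each arm varied little between libraries for miR-142. The 5p arm held 92.1% of all miR-142 reads, between 91.8% and 95.8% in 9 libraries and 88.3% (exact 95% binomial interval 86.4% to 90.05%) in siIGF2BP3 replicate 3. That library therefore had the highest level of both arms and the lowest 5p share. For miR-126 the 5p arm held 77.2% (73.2% to 80.9%) of all reads, between 73.1% and 86.5% with siC or siIGF2BP1. With 4 to 12 miR-126 reads in each siIGF2BP2 and siIGF2BP3 library a shift of arms was not detectable there. miR-144 was shared more evenly, with 44.7% of its reads from the 5p arm.

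**Figure D3:**
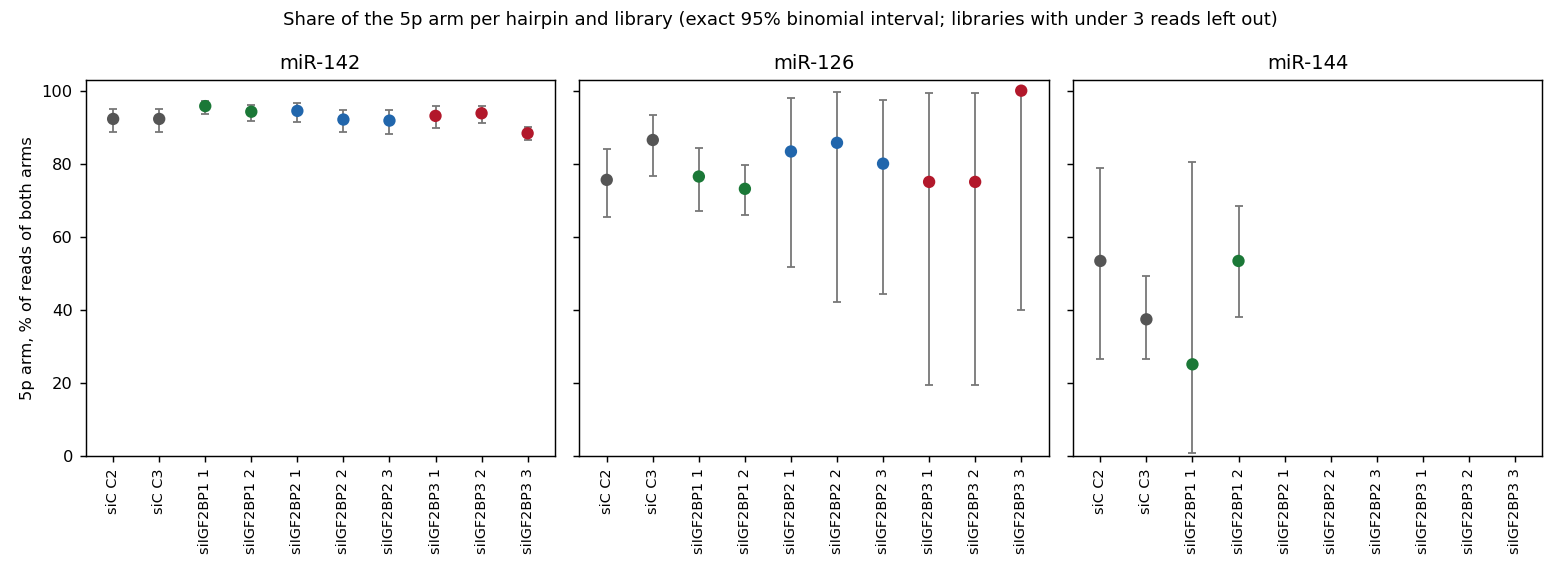
Share of reads of both arms that came from the 5p arm (y axis, %) for miR-142, miR-126 and miR-144 per library (x axis, points in group colours); bars give the exact 95% binomial interval, and libraries with under 3 reads are left out. miR-142 sits between 88.3% and 95.8% throughout, and the intervals of miR-126 widen in the siIGF2BP2 and siIGF2BP3 libraries.

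Groups were compared with limma on log2(value + 1), fitted to the 889 miRNAs that reached a value of 1 in 2 or more libraries, with Benjamini-Hochberg adjustment over all 889 at 0.05. Of the 9 miRNAs, 8 were tested and miR-486-5p was not. On this scale the change of a low miRNA is understated, and that of a miRNA at or near 0 depends on the pseudocount of 1, so ratios of pooled reads with exact counting intervals are given as well. The comparisons against siC share their 2 control libraries.

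In siIGF2BP1 against siC none of the 8 miRNAs passed the limma test, none of those tested passed in edgeR or DESeq2, and 0 were under an unadjusted p of 0.05 in limma. Over all 889 miRNAs 0.337% were called lower and 2.14% higher. miR-451a differed by -2.34 on the log2 scale (SE 1.34, limma adjusted p = 0.501), miR-144-3p by -1.79 (SE 0.89) and miR-144-5p by -1.88 (SE 1.06). The pooled reads of miR-451a were 3.75-fold higher in siC than in siIGF2BP1, but siC C2 alone was at 0.641 of the siIGF2BP1 rate and siC C3 alone at 6.26 times that rate. The direction of this pooled ratio therefore turned with the control library, and 242 of the 251 siIGF2BP1 reads came from replicate 2. The limma change was -0.708 without siC C3 and -3.98 without siC C2, and 0.00897 without siIGF2BP1 replicate 1. miR-142-3p differed by -0.76 (SE 0.61, limma adjusted p = 0.739), and its 2 siIGF2BP1 values lay below both siC values. Of the 889 miRNAs tested, 311 did not overlap between these groups, in either direction. miR-142-5p (-0.10, SE 0.34), miR-126-5p (-0.23, SE 0.36) and miR-126-3p (0.33, SE 0.68) differed by less than their standard errors. The median over the 8 miRNAs was -0.50, beside 0.10 over all miRNAs tested.

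In siIGF2BP2 against siC, 5 of the 8 tested miRNAs were lower and none was higher: the 3 erythroid miRNAs with reads and both arms of miR-126. Over all miRNAs tested 7.76% were called lower and 1.24% higher. Of these 5, miR-144-3p had passed the filter on low values only through the siC and siIGF2BP1 libraries. The median of the 8 was -2.73, beside -0.03 over all miRNAs tested. Setting miR-144-3p to its bound could not move this median, since it lay below the median either way. miR-223-3p, uncalled and among the 8, had also passed the filter only through siC C3 and siIGF2BP1 replicate 2.

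miR-451a fell by 7.22 on the log2 scale in siIGF2BP2 (SE 1.22, limma adjusted p = 0.00165). Its pooled read rate was 716-fold higher in siC (counting interval 128 to 28324), 122-fold with siC C2 alone. Both folds rest on 1 siIGF2BP2 read, under the floor of 3 reads over the group, so their size is uncertain. Without siC C3 the limma change was -5.59 and the call was lost (adjusted p = 0.0858). miR-144-3p, with 54 reads in siC and none in siIGF2BP2, was at least 24.0-fold lower at the floor of 3 reads over the group, or at least 6.96-fold lower against siC C2 alone (limma adjusted p = 0.00165, edgeR adjusted p = 0.0774). miR-144-5p fell by 4.03 (SE 0.97, limma adjusted p = 0.0206), from 36 reads to 1. That call was lost with a pseudocount of 0.1 and without any of 4 single libraries: siC C2, siC C3 and siIGF2BP2 replicates 1 and 3.

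miR-126-5p fell by 2.81 on the log2 scale in siIGF2BP2 (SE 0.33, limma adjusted p = 8.49e-05), from 132 reads to 24. This is a 7.33-fold difference in pooled read rate (counting interval 4.72 to 11.8). miR-126-3p fell by 2.65 (SE 0.62, limma adjusted p = 0.0177), 8.53-fold in pooled read rate (counting interval 3.30 to 28.0). Its call was lost with a pseudocount of 0.1, without siC C2 and without siIGF2BP2 replicate 2. The leukocyte miRNAs did not pass: miR-142-3p differed by 0.07 (SE 0.55, limma adjusted p = 0.989) and miR-142-5p by 0.20 (SE 0.31, limma adjusted p = 0.811), with overlapping groups.

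In siIGF2BP3 against siC the 5 called miRNAs were again the erythroid miRNAs with reads and both miR-126 arms, all lower, beside 8.66% of all miRNAs tested called lower and 1.91% called higher. As above, miR-144-3p was tested only because of its values in the siC and siIGF2BP1 libraries. miR-451a fell by 6.57 on the log2 scale (SE 1.22, limma adjusted p = 0.00259) and was 216-fold higher in siC by pooled reads (counting interval 84.0 to 797), 37.0-fold with siC C2 alone. Without siC C3 the change was -4.93 and the call was lost (limma adjusted p = 0.116). miR-144-3p was at least 29.0-fold lower, or at least 8.42-fold against siC C2 alone (limma adjusted p = 0.00129, edgeR adjusted p = 0.054). miR-144-5p fell by 4.17 (SE 0.97, limma adjusted p = 0.0127), and this call was lost with a pseudocount of 0.1 and without siC C3, siIGF2BP3 replicate 1 or siIGF2BP3 replicate 2.

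Both arms of miR-126 were lower in siIGF2BP3 as well. miR-126-5p fell by 4.12 (SE 0.33, limma adjusted p = 3.12e-06), a 21.3-fold difference in pooled read rate (counting interval 11.2 to 45.4). miR-126-3p fell by 3.63 (SE 0.62, limma adjusted p = 0.00136), from 32 reads to 2, the latter under the floor of 3 reads. That is 25.8-fold in pooled read rate (counting interval 6.58 to 222). These calls, with that of miR-126-5p in siIGF2BP2, were the 3 of 11 called member results that passed in every alternative run. The median of the 8 miRNAs, miR-144-3p and miR-223-3p included, was -3.87, beside 0 over all miRNAs tested.

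miR-142-5p was higher in all 3 siIGF2BP3 libraries than in both siC libraries, by 0.76 on the log2 scale (SE 0.31), but did not pass (limma adjusted p = 0.178, unadjusted p = 0.0314). Of the 889 miRNAs tested, 261 did not overlap between siIGF2BP3 and siC, in either direction. Without siIGF2BP3 replicate 3 the miR-142-5p difference was 0.33 (limma adjusted p = 0.313). miR-142-3p differed by 0.80 (SE 0.55, limma adjusted p = 0.495). The miRNAs whose pattern over the 10 libraries was most like that of miR-142-3p, by mean absolute difference of centred log2 values, were miR-29b-3p (0.227), miR-142-5p (0.308), miR-96-5p (0.332), miR-100-3p (0.345) and miR-1307-5p (0.372), against a median of 0.674 over the 312 compared. miR-29b-3p had 834 in siIGF2BP3 replicate 3 and at most 380 in any other library, so that library stood high for it too.

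**Figure D4:**
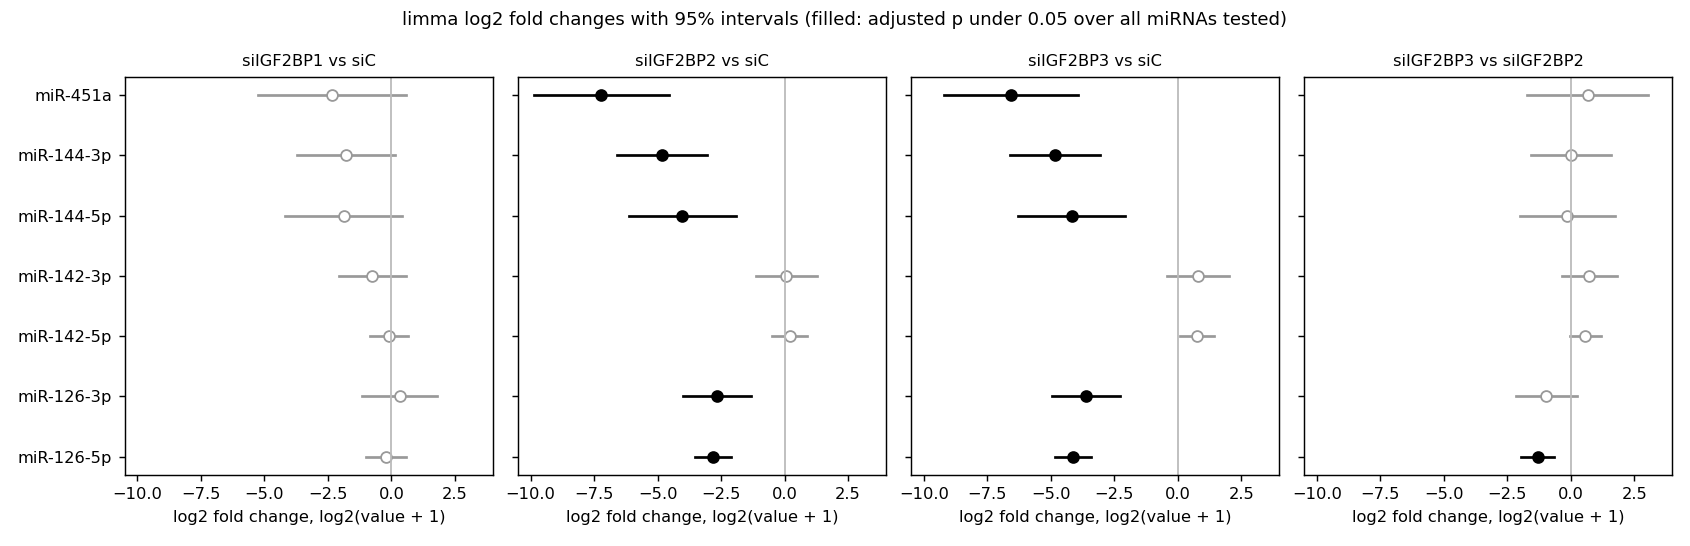
limma log2 fold changes on the log2(value + 1) scale (x axis) with 95% intervals for 7 members (y axis) in the 4 comparisons; filled points have an adjusted p under 0.05 over all miRNAs tested. Filled points are the erythroid and miR-126 members in siIGF2BP2 and siIGF2BP3 against siC, and miR-126-5p alone in siIGF2BP3 against siIGF2BP2.

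The siIGF2BP3 and siIGF2BP2 libraries share a source name, and their difference is taken without the control libraries, which enter the fit through the shared estimate of the spread. One of the 8 miRNAs was called, miR-126-5p, which was lower in siIGF2BP3, beside 1.69% of all miRNAs tested called lower and 1.46% called higher. It fell by 1.31 on the log2 scale (95% interval -1.96 to -0.667, limma adjusted p = 0.0313), from 24 reads to 10, a 2.90-fold difference in pooled read rate (counting interval 1.34 to 6.80). The 3 libraries of each group did not overlap, as for 136 of the 889 miRNAs tested, in either direction. In a fit to these 2 groups alone the call was lost (limma adjusted p = 0.148). It was lost in 10 of 18 alternative settings in all, with log2 changes between -1.56 and -0.90, and among single libraries without siIGF2BP2 replicate 1, 2 or 3 or siIGF2BP3 replicate 2 or 3 (limma adjusted p between 0.0649 and 0.102). miR-126-3p differed by -0.97 (SE 0.55, limma adjusted p = 0.462), 3.02-fold by pooled reads with a counting interval of 0.495 to 31.7. miR-142-3p differed by 0.73 (SE 0.50) and miR-142-5p by 0.57 (SE 0.28, limma adjusted p = 0.396), with overlapping groups. miR-451a differed by 0.66 (SE 1.09) on 1 and 4 reads.

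For miR-451a the authors' deposited table lists a log2 fold change of -1.72 in siIGF2BP1 (false discovery rate 1), -8.89 in siIGF2BP2 (2.49e-06) and -7.58 in siIGF2BP3 (9.98e-06). For miR-126-5p the authors' deposited table lists -0.19, -2.87 (4.15e-11) and -4.37 (4.91e-19). For miR-142-5p the authors' deposited table lists 0.90 in siIGF2BP3 with a false discovery rate of 0.428.

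Some other miRNAs known from particular cell types also followed the source names, while the sums of several lists overlapped. The lists were chosen with earlier results of these data known, so they give no independent support. How many of all miRNAs separated by source name was not counted. What part the listed miRNAs had in the results above was not tested. In the siC and siIGF2BP1 libraries against the others, the summed value of the erythroid members was 10.4 to 760 against 0 to 3.82, and of the endothelial members 81.9 to 151 against 4.73 to 17.3. miR-143-3p, a smooth muscle and fibroblast miRNA, was at 579 to 1548 against 3.55 to 11.5, but the other miRNA of that list, miR-145-5p, was at 0 in siC C2 as well as in all siIGF2BP2 and siIGF2BP3 libraries, and at 0.803 to 18.5 in the 3 others. Of 10 miRNAs of the imprinted 14q32 cluster, all 10 had a read in each siC and siIGF2BP1 library and 2 to 4 in each other library, with sums of 1231 to 3366 against 3.82 to 13.8. Neural miR-124-3p was at 16.9 to 48.5 against 0, within a neural list of 4 whose sums overlapped at 132 to 434 against 102 to 187. The endocrine list also overlapped (1176 to 1854 against 1294 to 1812), though its member miR-375 was at 12.9 to 335 against 0 to 1.996, and the epithelial miR-200 family was low throughout (0 to 4.95 against 2.37 to 11.5). The summed leukocyte members overlapped, at 399 to 490 against 434 to 1487, and the 2 liver markers had no read in any library. The muscle list was near 0 throughout (0 to 2.66 against 0). The libraries are described as ES-2, though the source name of the siIGF2BP2 and siIGF2BP3 libraries does not name that line. As bulk libraries they do not show from which or how many cells the reads of a miRNA came.

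By the same measure of likeness, miR-451a was nearest to miR-409-3p (0.914), miR-124-3p (1.17), miR-143-3p (1.26), miR-153-3p (1.26) and miR-323a-3p (1.29), against a median of 2.79. Even the nearest of them differed from it by close to 1 log2 unit per library on average. For miR-409-3p siC C2 (155) was above siC C3 (89.2), the reverse order of miR-451a. miR-126-3p was nearest to its partner arm miR-126-5p (0.409) and then to miR-218-5p (0.566), miR-592 (0.624), miR-149-5p (0.775) and miR-181c-5p (0.777), against a median of 1.59. miR-218-5p ranged from 213 to 858 with siC or siIGF2BP1, and elsewhere from 42.8 to 117. These likenesses describe 10 libraries that share the source name split, and are given with no test.

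A list of 14 further blood and endothelial miRNAs, of which 8 passed the filter, did not share one pattern. None was called in siIGF2BP1 against siC, 1 higher in siIGF2BP2 against siC, 1 higher and 1 lower in siIGF2BP3 against siC, and 2 higher and 1 lower in siIGF2BP3 against siIGF2BP2. Over all 889 miRNAs tested, 2.14%, 1.24%, 1.91% and 1.46% were called higher in these comparisons, in the same order. Called lower were 0.337%, 7.76%, 8.66% and 1.69%. miR-146a-5p, a feedback inhibitor of NF-kappaB signalling in immune cells, had 416 in siC C2, 422 in siC C3, 577 and 512 in siIGF2BP1, 996, 993 and 939 in siIGF2BP2, and 228, 202 and 201 in siIGF2BP3. It rose by 1.22 in siIGF2BP2 (limma adjusted p = 2.41e-05) and fell by 0.99 in siIGF2BP3 (limma adjusted p = 0.000153), with no overlap between the groups. Against siC, 238 of the 889 miRNAs tested did not overlap in siIGF2BP2 and 261 in siIGF2BP3, in either direction. miR-155-5p, induced in activated lymphocytes and macrophages, was at 4664 to 7547 in the siC and siIGF2BP1 libraries, 6016 to 6663 in siIGF2BP2 and 8633 to 9950 in siIGF2BP3. It was higher in siIGF2BP3, by 0.41 against siC (limma adjusted p = 0.0379) and by 0.60 against siIGF2BP2 (limma adjusted p = 0.00556). The lymphocyte miRNA miR-150-5p had 8.25, 1.33, 0.803 and 5.29 in the 4 siC and siIGF2BP1 libraries, against 0 to 1.19 elsewhere, and was called in no comparison. miR-342-3p, also known from leukocytes, was at 36.9 to 87.3 in all libraries and was called in no comparison, while miR-342-5p was higher in siIGF2BP3 than in siIGF2BP2 by 1.17 (limma adjusted p = 0.0313).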

How the data were processed

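Small RNA libraries of ES-2 cells (4 groups, 10 libraries) were analysed from the table of normalised signal that the authors deposited. Per the submitters' processing notes, the tools were featureCounts 1.4.6, cutadapt 1.6, edgeR 3.12 and Bowtie2 2.2.4, with hg19. The sources used here give neither the scaling nor the handling of mismatches. In every library 100% of values were whole multiples of 1 read within 0.01 reads, and reads were recovered from these. The authors' deposited log2 fold changes and p-values are quoted only where their table is named. In all 0 columns of other samples were left unused.

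Rows of 1 name were summed. The test was limma 3.58.1 (R 4.3.3, trend, all 4 groups in 1 fit) on log2(value + 1). Alternatives were other pseudocounts, scalings, filters, designs, left-out libraries, and edgeR 4.0.16 and DESeq2 1.42.0 on recovered reads. Scripts were tested on simulated data. Exact intervals came from scipy 1.17.1. Replicate libraries differed beyond sampling noise (6.80 to 38.7 for chi-square over its degrees of freedom), so each counts as 1 library. Totals of 462724 to 1269743 reads put 1 read at 0.803 to 1.996 units.

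The 9 members and all lists were chosen with earlier results of these data known. All members are named, with the other listed blood and endothelial miRNAs of mean value at least 10, those a statement turns on, and the miRNAs nearest to miR-451a, miR-142-3p and miR-126-3p.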

Additional observations from a re-analysis of the deposited data

Results flagged for a closer look

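For miR-126-5p the effects of 2 knockdowns against the same siC libraries differed by a direct test: siIGF2BP3 was lower than siIGF2BP2 by a log2 difference of -1.31 (limma adjusted p = 0.0313), with all 3 siIGF2BP3 libraries below all 3 siIGF2BP2 libraries. Of the 889 miRNAs tested, 136 did not overlap between these 2 groups, in either direction. The miR-126-5p difference rests on 24 and 10 reads. It did not pass in 10 of 18 alternative settings.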

How the results depend on the processing

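Of 11 called member results 3 passed in every alternative run, 8 were lost in at least 1, and 1 uncalled result was gained, miR-142-5p in siIGF2BP3 against siC under upper-quartile scaling (1.36, adjusted p = 0.00614). The cause was not tested except where named. Called members in siIGF2BP2 against siC numbered 3 with a pseudocount of 0.1 and 3 with a mean of at least 10, which leaves both miR-144 arms untested, and 3 to 4 without single libraries. In siIGF2BP3 against siC they numbered 3 with that filter and 3 to 5 without single libraries. In siIGF2BP3 against siIGF2BP2 they numbered 0 with a pseudocount of 5, upper-quartile scaling, a fit to the 2 compared groups or DESeq2, and 0 to 1 without single libraries.

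Over all miRNAs the 22 calls in siIGF2BP1 against siC became 10 under upper-quartile scaling, 52 with a mean of at least 10, 10 in the 2-group fit, 42 with edgeR, 35 with DESeq2 and 2 to 16 without single libraries. TMM scaling gave 12 higher and 13 lower there, against 19 and 3. The 80 in siIGF2BP2 became 160 (96 higher, 64 lower) under upper-quartile scaling, 49 with a mean of at least 10, 52 with edgeR and 53 to 64 without single libraries. The 94 in siIGF2BP3 became 203 (137 higher, 66 lower) under upper-quartile scaling, which moved the median of the 313 miRNAs of mean at least 10 to 0.52 and 0.67, from 0.04 and 0.08. The 28 in siIGF2BP3 against siIGF2BP2 became 17 under upper-quartile scaling and 14 to 22 without single libraries.

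Directions of uncalled members turned without single libraries: in siIGF2BP1 against siC miR-451a ranged from -4.69 to 0.00897, miR-126-3p from -0.36 to 1.02 and miR-126-5p from -0.63 to 0.17. miR-223-3p ranged there from -1.14 to 0.53, but on 2 reads in each group, under the floor of 3. In siIGF2BP2 against siC miR-142-3p ranged from -0.11 to 0.37, and was -0.052 with TMM scaling. In siIGF2BP3 against siIGF2BP2 miR-144-5p ranged from -0.51 to 0.38.

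With the replicate number as a replicate block, siIGF2BP3 against siIGF2BP2 had 5 calls and 0 members. Same-numbered libraries did not deviate together (correlations -0.12, -0.16 and -0.04 over 313 miRNAs, highest other 0.20, 0.20 and 0.09), so the numbers were not taken as pairs. The siC columns carry no usable number, so no paired fit against siC was possible. At these depths miR-144, miR-223-3p and miR-126-3p rest on few reads in most libraries.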
